A study of Homo sapiens with 8 samples.

Results

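Chemokine ligands and the receptors that guide lymphocyte migration were examined as a set of 32 named genes, 15 ligands and 17 receptors, in a human B-cell line with induced cyclin D1. Each gene was read from probe sets annotated to that gene alone, and the brightest of these over all 8 arrays stood for the gene. This gave a value for 31 of the 32 genes, 14 ligands and 17 receptors, among 18231 genes measured in all. CCL4 had no such probe set, because its 3 probe sets are shared with its near-identical copies CCL4L1 and CCL4L2, so it has no value here.

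JVM13 is an established B-cell line from a prolymphocytic leukaemia. Its RNA was hybridised to Affymetrix expression arrays, and the values are log2 expression levels. A vector inducible by doxycycline brought in wild-type cyclin D1 (3 arrays) or the T286A form (3 arrays), and the control line held the same vector empty (2 arrays). T286A lacks a phosphorylation site through which the protein is exported from the nucleus and degraded. Every group, the empty vector included, was given 0.1 µg/mL doxycycline. The induction time is not given in the sources used here, nor is it said whether the cells of a construct were 1 clone or a pool, or whether replicates were separate cultures. The p-values therefore measure the spread between these arrays, which may be technical.

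Chemokines are small secreted proteins that bind G protein-coupled receptors and draw cells along a gradient, and B cells use them to enter, cross and leave lymphoid tissue. CCR7 and CXCR5 bring B cells into lymph nodes and follicles, CXCR4 holds them near CXCL12-producing stroma, and the sphingosine 1-phosphate receptor S1PR1 lets them leave. Activated B cells in turn secrete CCL3, CCL4 and CCL22, which attract T cells and myeloid cells. ACKR3 and CCRL2 are atypical receptors that bind attractants without the usual G protein signal.

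CCND1, the gene induced, averaged 5.12 ± 0.19 (SD, n = 2) in empty vector, 11.06 ± 0.08 with the wild type and 11.02 ± 0.20 with T286A (SD, n = 3 each), so the transcript followed the group labels. B-cell identity was checked with 8 marker genes, of which 7 were measured and 6 reached the median level of all genes (5.94), among them MS4A1 at 13.3 and CD79A at 11.7; BANK1 was the exception at 4.06. Of the markers of other cells, 0 of 10 of T and NK cells, 1 of 8 of myeloid cells (ITGAM, 7.61), 0 of 5 of dendritic cells and 2 of 6 of endothelial and stromal cells (PECAM1, 8.26, and PDGFRB, 5.96) reached that median. Among these markers only the B-cell gene CD22 was called in any comparison, which fell by 0.40 ± 0.08 with the wild type (adjusted p = 0.0498), a call that held in 4 of 17 alternative settings and was lost whichever array was left out (adjusted p = 0.0607 to 0.251). Array medians ran from 5.47 to 5.62. Wild-type replicate 2 stood apart, with the lowest median, correlations with its own group of 0.9943 to 0.9945 and a limma array weight of 0.513.

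A dim probe set can read background alone. As a guide, 34 measured genes of other tissues had a 95th percentile of 5.63. KRT10 at 9.92 and ACTA1 at 6.26 were the genes of that list above it. Averaged over all arrays, 4 of 14 ligands lay above that level, namely CCL3, CCL22, CCL5 and CCL20. So did 9 of 17 receptors, namely CCR7, CXCR4, GPR183, S1PR1, CCR10, ACKR3, CCR9, S1PR4 and CXCR3. The other 18 members were at or below it, from XCL1 at 4.08 to CX3CL1 at 5.62, so their values say little about whether the transcript was present. Levels are those of each gene's own probe set and do not rank the genes' transcripts.

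With wild-type cyclin D1, 6 of the 31 measured members fell and 0 rose at an adjusted p under 0.05 in limma. The members that fell were the ligands CCL22, CCL20, CCL3 and CXCL8 and the receptors CCR9 and ACKR3. That is 19.4% of the members, beside 1.14% of all genes called lower and 0.603% called higher in the same comparison (1.74% in either direction). The members were chosen with earlier results of these data known, so the shares in this paragraph are not a test of the set. With T286A, 2 members fell, CCR9 and CCL3, and 0 rose, beside 0.192% of all genes called lower and 0.34% called higher (0.532% in either direction). The contrast of T286A with the wild type called 2 members higher, CCL22 and CCR9, and 0 lower, beside 0.598% and 0.389% of all genes (0.987% in either direction). The arrays of both constructs together against empty vector called 5 members lower (CCR9, CCL22, CCL3, ACKR3 and CXCL8) and 0 higher, beside 0.697% and 0.702% of all genes (1.4% in either direction). This contrast averages the constructs, so a call in it does not mean that each construct had one. With T286A alone CCL22 (-0.23), ACKR3 (-0.36) and CXCL8 (-0.39) had no call. In alternative settings the averaged call held in 6 of 16 for ACKR3 and 3 of 15 for CXCL8. It held in 13 of 16 for CCL22 and for CCL3 and in 16 of 16 for CCR9. The 2 empty vector arrays serve as controls for the wild type and for T286A alike, so the values of both comparisons are set side by side and are not independent. Centring each array on 16 housekeeping genes moved the split of all calls from 110 higher and 207 lower to 409 and 142 with the wild type, and from 109 and 71 to 98 and 599 between constructs. With T286A it moved from 62 and 35 to 40 and 41, and for both constructs from 128 and 127 to 206 and 94. The members' split moved in the contrast of the constructs, from 2 higher and 0 lower to 3 and 2, and stayed at 0 higher in the other comparisons.

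Most members had small differences. The median difference over the 31 members was -0.08 with the wild type and -0.08 with T286A, beside 0.0016 and -0.0030 over all genes. The medians for ligands were -0.24 and -0.16, and those for receptors -0.06 and -0.07. Differences were below 0 for 22 of 31 members with the wild type and for 21 with T286A, beside 9024 and 9281 of all 18231 genes. The dim members are among those counted. All wild-type arrays lay below both control arrays for 14 members (15.3% of all genes did so) and above them for 2 (15.2% of all genes). All T286A arrays lay below both control arrays for 13 members (16.7% of all genes) and above them for 2 (15.2% of all genes). The arrays of both constructs lay below both controls for 11 members (6.88% of all genes) and above them for 1 (6.68% of all genes). All T286A arrays lay above all wild-type arrays for 6 members (9.94% of all genes) and below them for 2 (9.82% of all genes).

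**Figure D1:**
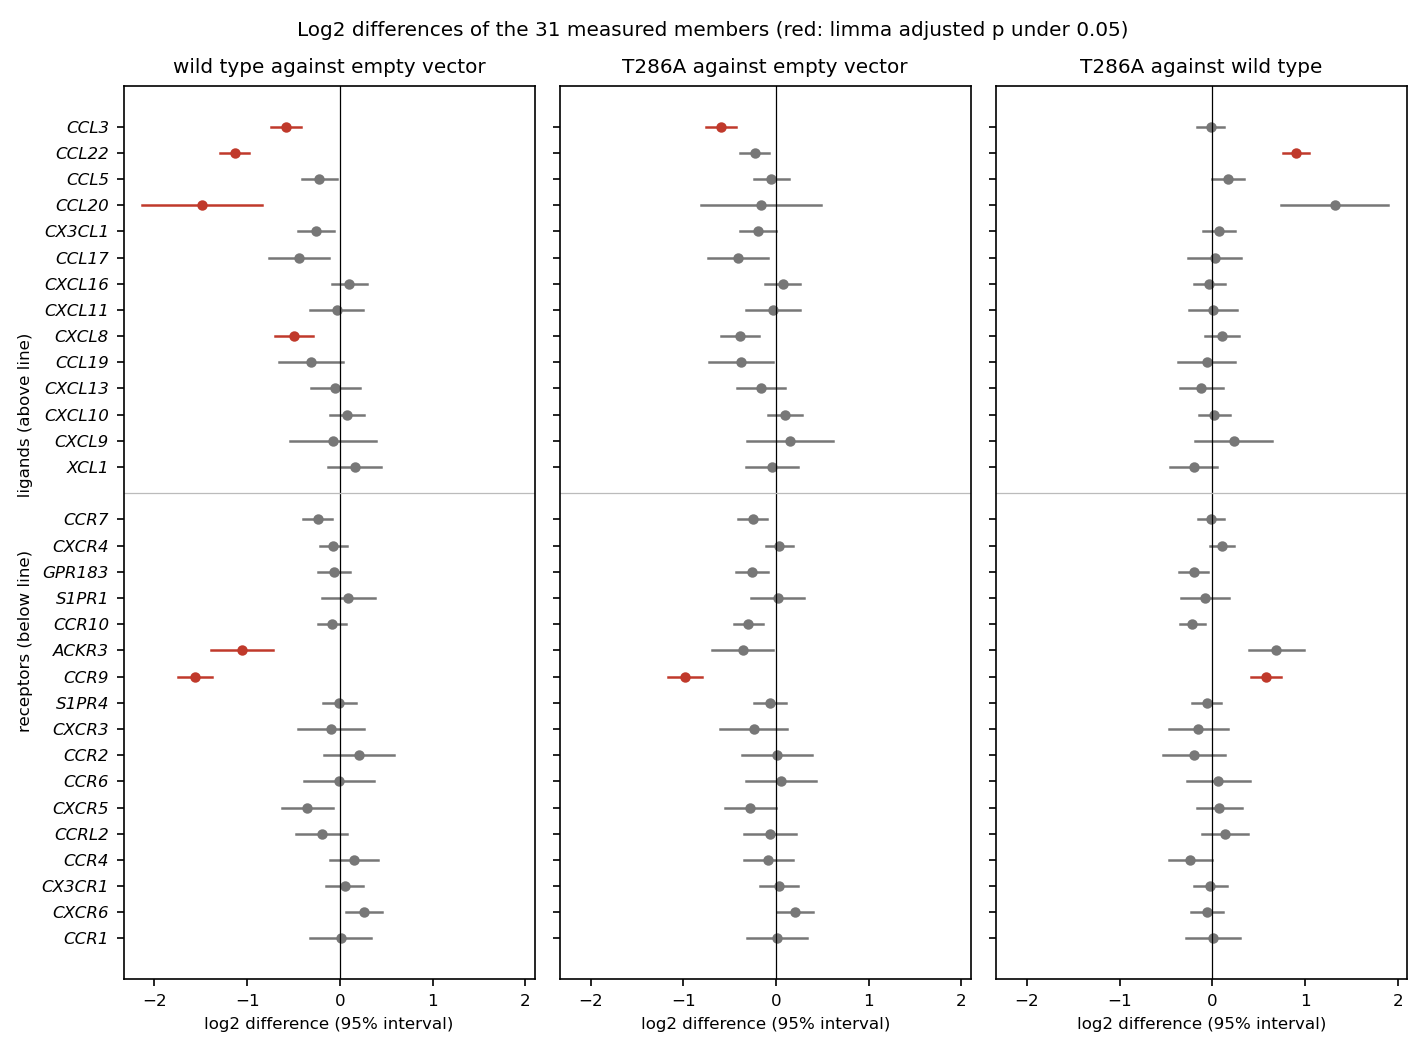
Differences in log2 level for the 31 measured members (rows, ligands and receptors) for each construct against empty vector and for T286A against the wild type; points are limma estimates, bars their 95% intervals, and red marks an adjusted p under 0.05. With the wild type, CCR9 (-1.56), CCL20 (-1.48), CCL22 (-1.13) and ACKR3 (-1.05) lie farthest to the left, while most other members lie near 0.

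Among the ligands, the arrays of CCL22 and of CCL20 separated into the 3 groups. Those of the receptors CCR9, ACKR3, CXCR4 and CCR10 did so too, although CXCR4 and CCR10 had no call. The share of all genes that separate into 3 groups was not counted. CCL22 attracts CCR4-bearing T cells, regulatory T cells among them. Its level was 10.54 and 10.56 in the empty vector arrays, 9.44, 9.34 and 9.47 in the wild-type arrays and 10.28, 10.36 and 10.32 in the T286A arrays. No array of any group overlapped with another group, and the wild-type arrays were lowest. CCL22 fell by 1.13 ± 0.068 (SE) with the wild type, which is 2.19-fold (adjusted p = 0.00028). With T286A the difference was -0.23 ± 0.068 (95% interval -0.39 to -0.07, adjusted p = 0.207), which did not pass the test. CCL22 was 0.90 ± 0.061 higher with T286A than with the wild type, which is 1.87-fold (adjusted p = 0.000665).

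CCL20, the ligand of CCR6, varied most among the wild-type arrays. It read 7.68 and 7.81 in empty vector, 6.78, 5.59 and 6.42 with the wild type and 7.54, 7.63 and 7.58 with T286A. All wild-type arrays were below all others, and every T286A array was below both controls. CCL20 fell by 1.48 ± 0.28 with the wild type, which is 2.8-fold (adjusted p = 0.0454), and the difference with T286A was -0.16 ± 0.28 (95% interval -0.81 to 0.48, adjusted p = 0.891). T286A against the wild type gave 1.32 ± 0.25, which is 2.5-fold but missed the threshold (adjusted p = 0.0618). The call rests on single arrays. Without wild-type replicate 2, the lowest, the fall was 1.15 (adjusted p = 0.0109) and T286A was called higher than the wild type (adjusted p = 0.0152). Without wild-type replicate 1 both were also called (adjusted p = 0.031 and 0.0359). Without wild-type replicate 3 the fall lost its call (adjusted p = 0.0952), as it did without any 1 T286A array (0.0786 to 0.0809) or either control array (0.191 and 0.272).

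CCL3, also called MIP-1 alpha, attracts monocytes and T cells. Its level was 11.96 and 11.95 in empty vector, 11.29, 11.43 and 11.40 with the wild type and 11.37, 11.30 and 11.40 with T286A. Both constructs lay below the controls without overlap, and their own arrays were intermixed. CCL3 fell by 0.58 ± 0.071 with the wild type, which is 1.49-fold (adjusted p = 0.0095), and by 0.60 ± 0.071 with T286A, which is 1.51-fold (adjusted p = 0.0203). The difference of T286A from the wild type was -0.02 (95% interval -0.16 to 0.13, adjusted p = 0.937). The gene has a single probe set of a type that can cross-hybridise, so signal from its near-identical copies cannot be separated from it. The call with T286A was lost without any 1 of the T286A arrays (adjusted p = 0.0826 to 0.0932) or either control array (0.163 and 0.199). The call with the wild type was lost without either control array (0.0919 and 0.102).

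CXCL8, the neutrophil attractant interleukin 8, was dim. It read 4.65 and 4.76 in empty vector, 4.33, 4.18 and 4.12 with the wild type and 4.31, 4.23 and 4.41 with T286A. The construct arrays were all below the controls. CXCL8 fell by 0.50 ± 0.09 with the wild type, which is 1.41-fold (adjusted p = 0.0373), and the difference with T286A was -0.39 ± 0.09 (adjusted p = 0.111). Its level lay below the 95th percentile of the genes of other tissues in every array. Its other 2 probe sets read -0.17 each with the wild type, and neither was called. The wild-type call held in 4 of 16 alternative settings (adjusted p from 0.0237 to 0.27). Of the 8 settings that left out 1 array, it held without wild-type replicate 1 (adjusted p = 0.0482) and was lost in the others.

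**Figure D2:**
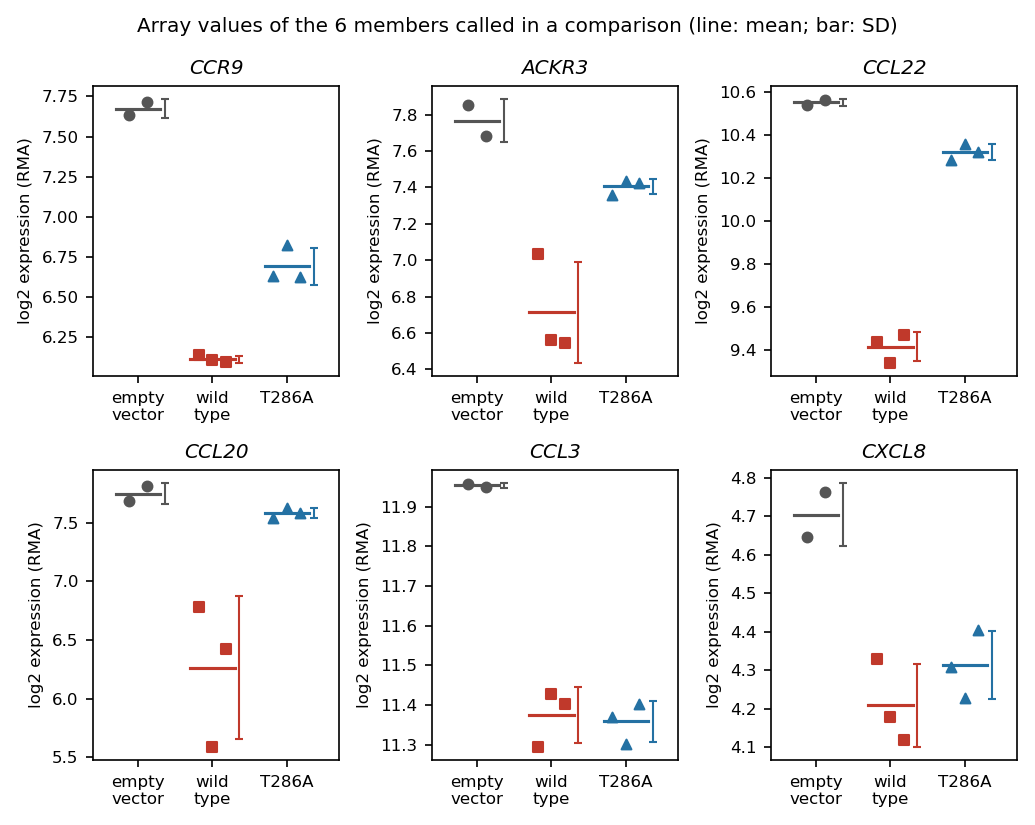
Log2 levels of the 6 called members in each array (points) by group, with group means as lines and SDs as bars. The arrays of CCR9, CCL22, CCL20 and ACKR3 separate into 3 groups without overlap, the wild type lowest, and those of CCL3 and CXCL8 into controls and constructs. The arrays of the uncalled CXCR4 and CCR10 also separate into 3 groups, in other orders.

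Among the receptors, CCR9 had the largest fall. CCR9 responds to CCL25 and is known as a homing receptor for thymus and small intestine. It read 7.63 and 7.72 in empty vector, 6.14, 6.11 and 6.10 with the wild type and 6.63, 6.83 and 6.62 with T286A. The 3 groups did not overlap, and T286A lay between the others. CCR9 fell by 1.56 ± 0.081 with the wild type, which is 2.95-fold (adjusted p = 0.000111). It fell by 0.98 ± 0.081 with T286A, which is 1.97-fold (adjusted p = 0.00858). The T286A level was 0.58 ± 0.072 above the wild type, which is 1.49-fold (adjusted p = 0.0114). The wild-type fall and the difference between constructs kept their calls under all 17 alternative settings tried, whereas the T286A fall kept its call in 11 of 17. It was lost without T286A replicate 1 (adjusted p = 0.0542) or 3 (0.0504) and without either control array (0.0935 and 0.167).

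ACKR3, an atypical receptor that takes up CXCL12, was the other receptor that fell. It read 7.85 and 7.68 in empty vector, 7.03, 6.56 and 6.55 with the wild type and 7.36, 7.44 and 7.42 with T286A. The groups did not overlap, and the wild-type arrays were again lowest. ACKR3 fell by 1.05 ± 0.14 with the wild type, which is 2.08-fold (adjusted p = 0.0139). The difference with T286A was -0.36 ± 0.14 (adjusted p = 0.361). T286A against the wild type gave 0.69 ± 0.13 (adjusted p = 0.056), and this was called without wild-type replicate 1 (adjusted p = 0.00898), the highest of its group. The fall with the wild type lost its call without either control array (0.126 and 0.104).

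The counts depend on the 2 control arrays. Without either of them only CCR9 and CCL22 kept a call with the wild type (2 members), and 0 members kept one with T286A. With only the 2 groups of a comparison in the fit, 2 members were called with the wild type and 0 with T286A. Without wild-type replicate 2, the array that stood apart, 5 members fell with the wild type, CXCL8 having lost its call (adjusted p = 0.087), and 3 were higher with T286A than with the wild type, CCL20 being added. RNA was taken from whole cultures, so a lower level in all cells and a loss of the transcript in some of them cannot be told apart.

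Of the members without a call, CCR7 was the one with the smallest unadjusted p with the wild type. CCR7 guides B cells to CCL19 and CCL21 in the T-cell zone. It read 12.52 and 12.54 in empty vector, 12.20, 12.32 and 12.35 with the wild type and 12.28, 12.27 and 12.28 with T286A. Both constructs lay below the controls, with differences of -0.24 ± 0.068 (adjusted p = 0.158) and -0.25 ± 0.068 (adjusted p = 0.163). It passed the test with a prior that follows the mean level (adjusted p = 0.00282 and 0.00249) and among genes above the median alone (0.0452 and 0.0428).

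CXCR4, the CXCL12 receptor, read 11.32 and 11.33 in empty vector, 11.30, 11.20 and 11.25 with the wild type and 11.38, 11.34 and 11.36 with T286A. The wild-type difference was -0.07 (95% interval -0.22 to 0.07, adjusted p = 0.697), and that with T286A 0.04 (-0.11 to 0.18, adjusted p = 0.894). All 3 T286A arrays lay above all wild-type arrays, but the difference of 0.11 did not pass the test (adjusted p = 0.452). After centring each array on 16 housekeeping genes the wild-type difference was 0.04 and that between constructs -0.01, so neither has a settled direction.

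GPR183, which senses oxysterols and positions B cells at the edge of follicles, read 11.07 and 10.97 in empty vector, 10.94, 10.88 and 11.05 with the wild type and 10.78, 10.72 and 10.77 with T286A. Its T286A arrays were lowest without overlap, at -0.26 from the controls (adjusted p = 0.19) and -0.20 from the wild type (adjusted p = 0.252). CCR10, a receptor of plasma cells for CCL27 and CCL28, also had its T286A arrays lowest, with 8.16 and 8.23 in empty vector, 8.11, 8.13 and 8.10 with the wild type and 7.97, 7.86 and 7.87 with T286A. Its difference with T286A was -0.30 ± 0.067 (adjusted p = 0.106), the smallest unadjusted p among the uncalled members of that comparison. After the same centring, GPR183 and CCR10 were called lower with T286A than with the wild type (adjusted p = 0.0439 and 0.0338), and their small wild-type differences changed sign (0.05 and 0.02). That centring also moved the median of all genes between constructs to -0.12. It called 98 genes higher and 599 lower there, beside 109 and 71 without it. The new calls of these receptors cannot be read apart from that shift.

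The ligands CCL5, CX3CL1 and CCL17 had no call. CCL5, a T-cell attractant, read 9.32 and 9.36 in empty vector, 9.19, 8.98 and 9.17 with the wild type and 9.23, 9.29 and 9.33 with T286A. Its wild-type arrays were lowest, at -0.22 from the controls (adjusted p = 0.281), and the T286A difference was -0.05 (adjusted p = 0.879). CX3CL1, a membrane-bound attractant, read 5.77 and 5.80 in empty vector, 5.48, 5.49 and 5.62 with the wild type and 5.48, 5.61 and 5.70 with T286A (-0.26 and -0.19, adjusted p = 0.22 and 0.426). CCL17, which shares the receptor CCR4 with CCL22, read 5.79 and 5.33 in empty vector, 5.25, 4.99 and 5.14 with the wild type and 5.27, 5.13 and 5.07 with T286A. Its lower control lay close to the highest construct arrays, and its differences were -0.44 and -0.41 (adjusted p = 0.213 and 0.28).

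**Figure D3:**
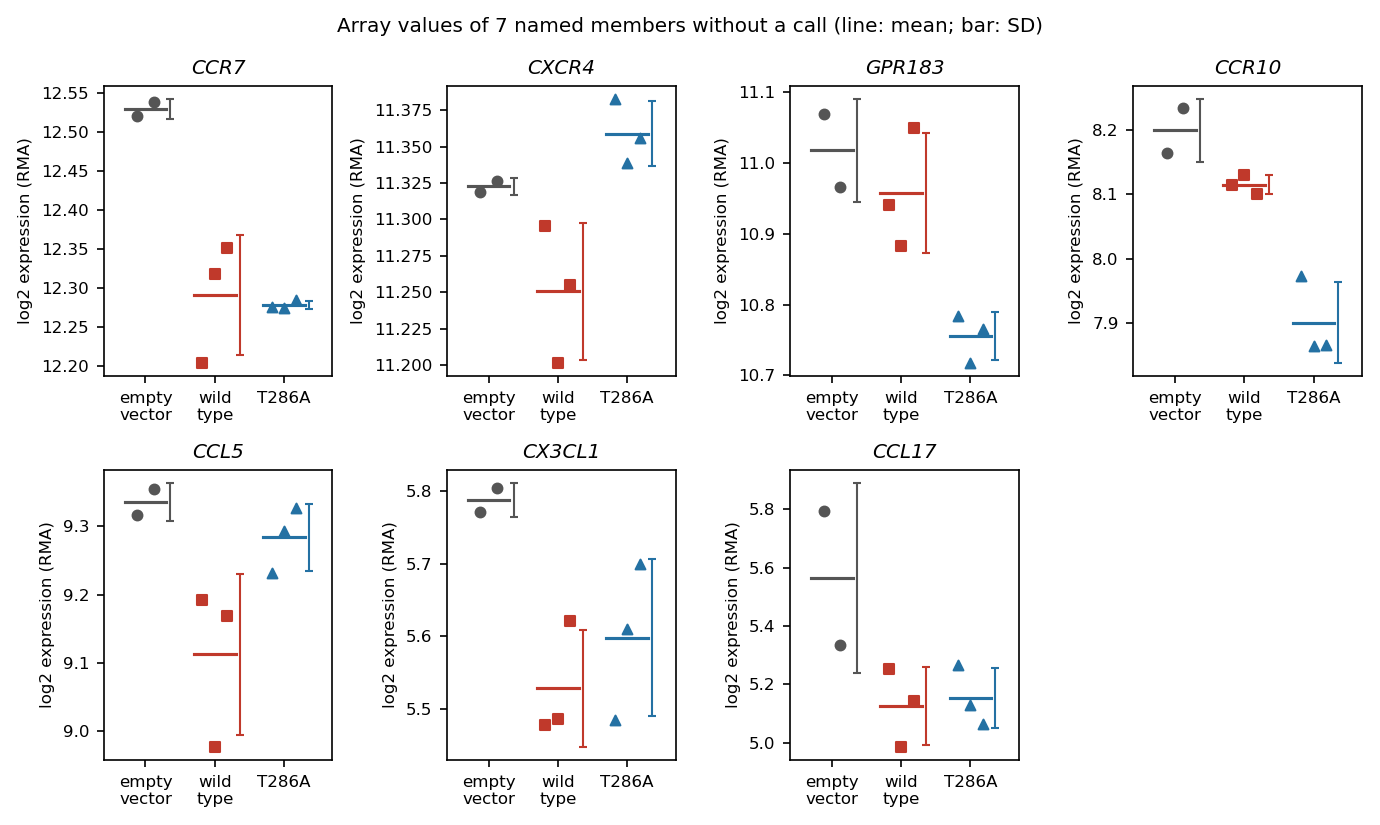
Log2 levels by array and group, with group means as lines and SDs as bars, for the uncalled members CCR7, CXCR4, GPR183, CCR10, CCL5, CX3CL1 and CCL17. The group means lie close together in every panel, and both constructs lie below the controls for the receptors CCR7 and CCR10.

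The remaining members had no call in any comparison. S1PR1 read 8.39 ± 0.02 in empty vector, 8.49 ± 0.25 with the wild type and 8.41 ± 0.04 with T286A (SD). CXCR3, a receptor of activated lymphocytes, differed by -0.09 and -0.24 with the wild type and T286A (adjusted p = 0.865 and 0.612). CXCR6, the receptor of CXCL16, was the member whose arrays lay above the controls in both constructs, by 0.26 and 0.21 (adjusted p = 0.218 and 0.384), at a level of 4.17 in the range of background. CXCR5, the follicle homing receptor, was dim too, at 4.97 in empty vector, 4.62 with the wild type and 4.69 with T286A (adjusted p = 0.235 and 0.41).

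Receptors were also set beside their ligands. CCL22 fell while its receptor CCR4 had no call and lay at 4.40 to 4.64 in the group means, and CCL20 fell while CCR6 lay at 4.77 to 4.83. CCR9 fell and its ligand CCL25, outside the set, averaged 5.24, 5.18 and 4.86 in empty vector, wild type and T286A. ACKR3 fell, CXCR4 had no call and their ligand CXCL12 read 4.21, 4.38 and 4.12. CCL3 fell and its receptor CCR1 averaged 4.10, 4.10 and 4.11. CCR4, CCR6, CCR1, CCL25 and CXCL12 all averaged below the 5.63 of the genes of other tissues.

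CCL22, CX3CL1 and CCL17 are consecutive protein-coding genes with 0 others between them in the RefSeq gene table. Their wild-type differences were -1.13, -0.26 and -0.44, and only that of CCL22 was called. CCR9 lies in a row with CXCR6, CCR1, CCR2 and CCRL2, each separated from the next by 1 coding gene. Within that row CCR9 was called lower with the wild type, and CXCR6 (0.26), CCR1 (0.01), CCR2 (0.21) and CCRL2 (-0.20) had no call. Their mean levels were 4.17, 4.10, 5.03 and 4.56, and those of CX3CL1 and CCL17 were 5.62 and 5.25. All lay below the 5.63 of the genes of other tissues, where a probe set can read background alone. Whether these neighbours changed along with CCR9 or CCL22 therefore cannot be told.

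Genes with several probe sets were compared across them, each tested on its own with p adjusted over all probe sets. CCL22 had 2, both below the controls with the wild type (-1.13 and -0.67), and the brighter was called. ACKR3 had 4, all below the controls with the wild type, from -1.05 to -0.57, and 1 of them was called. CCL20, CCL3 and CCR9 each had 1 probe set. CXCR4 had 4, between -0.22 and -0.07 with the wild type and between 0.04 and 0.11 with T286A, with 0 called.

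**Figure D4:**
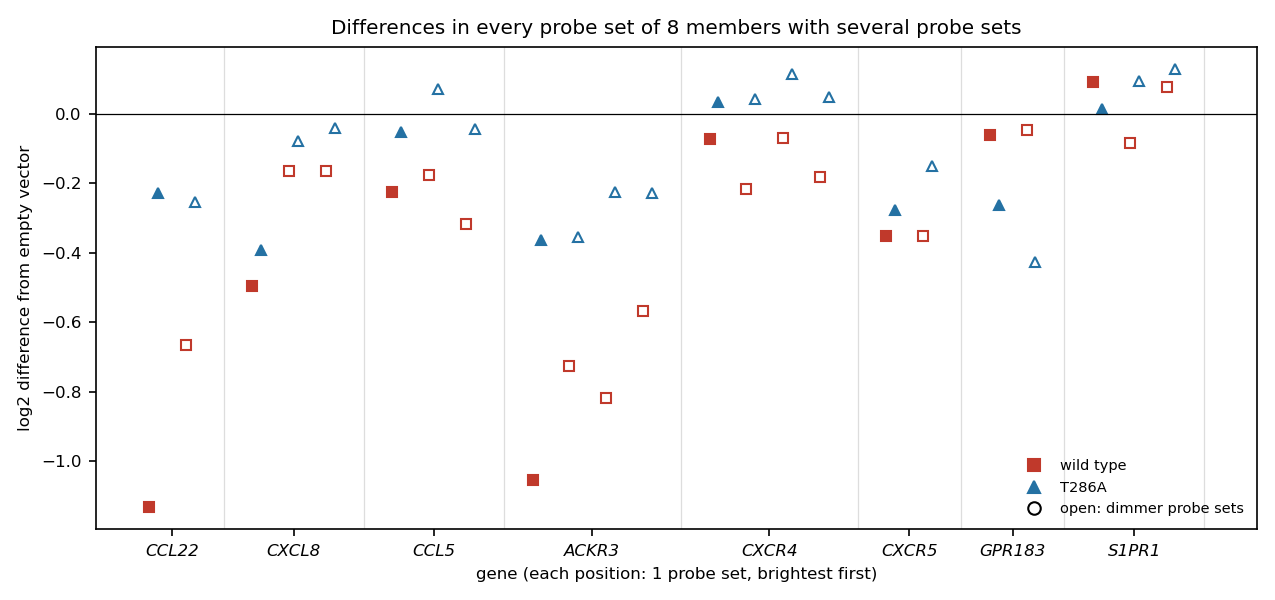
Log2 differences of every probe set of 8 members with several probe sets, for wild type (squares) and T286A (triangles) against empty vector; filled symbols are the brightest probe set of the gene and open ones the dimmer. The probe sets of CCL22, ACKR3 and CXCL8 all lie below 0 in both comparisons.

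Promoter windows of RefSeq (build GRCh38.p14, 250 bases before to 50 after the annotated start) were found for 23 of the measured members, 35 windows in all. The windows were searched on both strands for the consensus kappa-B motif of NF-kappa-B, a family known to drive many chemokine genes. The motif was taken as GGGRNNYYCC, where R is A or G, Y is C or T and N is any base, and only exact matches were counted. A match was present in 6 of 35 member windows (17.1%) and in 11.3% of 35116 windows of all genes. Among the called members, windows were found for 5, and CCL22 and CCL20 held a match; ACKR3 had no entry. The windows of CCL22 (chr16:57358533-57358832, plus strand), CCL20 (chr2:227813592-227813891, plus strand), CCL3 (the first of its windows, chr17:36090094-36090393, minus strand) and CCR9 (the first of its windows, chr3:45886293-45886592, plus strand) are shown because these genes carry the differences described. They are written 5′ to 3′ on the gene's strand, and capitals mark motif matches.

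CCL22: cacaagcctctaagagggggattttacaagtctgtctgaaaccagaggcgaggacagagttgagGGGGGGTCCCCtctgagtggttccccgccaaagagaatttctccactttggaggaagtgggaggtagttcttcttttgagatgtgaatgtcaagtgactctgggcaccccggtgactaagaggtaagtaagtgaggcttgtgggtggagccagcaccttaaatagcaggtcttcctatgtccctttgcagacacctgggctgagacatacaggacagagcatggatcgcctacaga

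CCL20: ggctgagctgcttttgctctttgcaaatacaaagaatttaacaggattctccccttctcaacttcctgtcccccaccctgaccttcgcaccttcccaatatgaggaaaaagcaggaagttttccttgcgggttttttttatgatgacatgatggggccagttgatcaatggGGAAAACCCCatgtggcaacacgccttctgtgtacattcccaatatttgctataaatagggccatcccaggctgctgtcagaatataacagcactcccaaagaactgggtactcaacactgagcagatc

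CCL3: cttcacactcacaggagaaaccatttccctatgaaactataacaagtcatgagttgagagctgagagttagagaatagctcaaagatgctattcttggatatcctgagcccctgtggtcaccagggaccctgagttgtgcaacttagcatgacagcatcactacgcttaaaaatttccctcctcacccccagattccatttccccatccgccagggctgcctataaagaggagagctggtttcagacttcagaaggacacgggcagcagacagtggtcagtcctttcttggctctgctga

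CCR9: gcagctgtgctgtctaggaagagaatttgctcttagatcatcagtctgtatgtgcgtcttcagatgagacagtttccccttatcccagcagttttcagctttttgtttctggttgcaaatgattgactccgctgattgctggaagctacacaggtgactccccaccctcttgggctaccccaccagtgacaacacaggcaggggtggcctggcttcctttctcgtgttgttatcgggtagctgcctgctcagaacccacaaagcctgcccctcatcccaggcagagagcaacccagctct

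The CCL22 window held overlapping matches, GGGGGGTCCC at positions -186 to -177 and GGGGGTCCCC at -185 to -176 from the start site. The CCL20 window held GGAAAACCCC as read on the plus strand, matched on the minus strand, at -79 to -70. The windows of CCR9, CCL3 and CXCL8 held no exact match. The CXCL8 window holds tggaatttcc, which differs from the pattern at its first base only. Lack of a match therefore does not mean that a kappa-B site is absent. The uncalled genes CXCL10, CXCL11, S1PR1 and S1PR4 held matches as well. A match describes the letters in the window only, and binding was not measured.

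Other genes of the pathway were taken from lists outside the set. Of 25 other chemokines measured, 0 were called in limma in any of the 4 comparisons (unadjusted p under 0.05: 0 higher and 1 lower with the wild type, 0 and 1 with T286A, 0 and 2 between constructs, 0 and 1 for both). The share of all genes at an unadjusted p under 0.05 was not counted. The unadjusted counts of this and the following lists therefore have no background to be read against. CXCL1 had the smallest p with the wild type, at -0.21 (adjusted p = 0.323), and CCL25 that with T286A, at -0.38 (adjusted p = 0.284). Of 18 other chemoattractant receptors, 0 were called as well (unadjusted: 2 higher and 3 lower with the wild type, 0 and 0 with T286A, 3 and 1 between constructs, 0 and 2 for both). P2RY8, a receptor that confines germinal-centre B cells, had the smallest p with the wild type, at -0.24 (adjusted p = 0.113).

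Among 34 measured genes of chemokine receptor signalling, 2 fell with the wild type and 0 rose, beside 1.14% and 0.603% of all genes. Their median difference was -0.06, beside 0.0016 over all genes. PIK3R5, the regulatory subunit of the G protein-activated PI3-kinase gamma, read 7.33 and 7.41 in empty vector, 6.70, 6.51 and 6.66 with the wild type and 7.39, 7.23 and 7.50 with T286A. It fell by 0.75 ± 0.099 with the wild type (adjusted p = 0.0128) and was 0.75 ± 0.089 higher with T286A than with the wild type (adjusted p = 0.00839), with no overlap of the wild-type arrays with the others. PREX1, an activator of RAC downstream of that kinase, read 9.62 and 9.52 in empty vector, 8.90, 8.77 and 8.93 with the wild type and 9.12, 9.33 and 9.10 with T286A. PREX1 fell by 0.70 ± 0.092 with the wild type (adjusted p = 0.0126), and both constructs lay below the controls. With T286A, 0 of the 34 were called (unadjusted: 0 higher and 3 lower). Tested on its own, 1 of 2 probe sets was called lower with the wild type for PIK3R5 and likewise for PREX1. The wild-type calls were lost without either control array (adjusted p = 0.0929 and 0.133 for PIK3R5, 0.12 and 0.0982 for PREX1), whereas PIK3R5 between constructs kept its call in 17 of 17 alternatives.

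Among 20 measured adhesion and homing molecules, 1 rose and 2 fell with the wild type, beside 0.603% and 1.14% of all genes. CD9, a tetraspanin, read 7.52 and 7.61 in empty vector, 8.35, 8.10 and 8.41 with the wild type and 7.58, 7.46 and 7.66 with T286A. It rose by 0.72 ± 0.11 with the wild type (adjusted p = 0.0179) and was 0.72 ± 0.096 lower with T286A than with the wild type (adjusted p = 0.0143). With T286A this probe set lay at -0.0024 from the controls. Over all 9 CD9 probe sets that difference ran from -0.18 to 0.45, above 0 in 5 and below 0 in 4. ICAM1, the ligand of the integrin LFA-1, read 9.88 and 9.96 in empty vector, 9.28, 9.27 and 9.35 with the wild type and 9.36, 9.17 and 9.38 with T286A. ICAM1 fell in both constructs, by 0.62 ± 0.083 (adjusted p = 0.0129) and 0.62 ± 0.083 (adjusted p = 0.0315). The ICAM1 call with T286A held in 7 of 17 alternatives (adjusted p from 0.000219 to 0.268). It was lost with every probe set tested on its own (0.0527), without either control array (0.163 and 0.268), without any 1 T286A array (0.0879 to 0.1) and without wild-type replicate 1 or 3 (0.0688 and 0.0524). CD44, the hyaluronan receptor, fell by 0.40 ± 0.064 with the wild type (adjusted p = 0.0232), which held in 8 of 17 alternatives. Leaving out 1 array kept the CD44 call only without T286A replicate 1 or 2 (up to 0.201 in the others). Tested on their own with the wild type, 7 of 10 probe sets of CD44 and 1 of 3 of ICAM1 were called lower, and 3 of 9 of CD9 higher; with T286A, 0 probe sets of these genes were called. Without either control array, the wild-type calls of ICAM1 (0.0919 and 0.133) and CD9 (0.137 and 0.133) were lost too, and that of CD9 also without wild-type replicate 1 (0.0642) or 3 (0.0531). The CD9 difference between constructs lost its call without wild-type replicate 1 or 3 (0.0627 and 0.0554) or T286A replicate 1 or 2 (0.0581 and 0.062). With the mean of all CD9 probe sets it was -0.41 and lost its call too (0.0647). Tested on their own, 2 of 9 CD9 probe sets were called lower with T286A than with the wild type. Of 12 genes that make or break down lipid attractants, 0 were called in limma (unadjusted: 0 higher and 2 lower with the wild type, 1 and 2 with T286A, 1 and 0 between constructs, 0 and 3 for both).

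**Figure D5:**
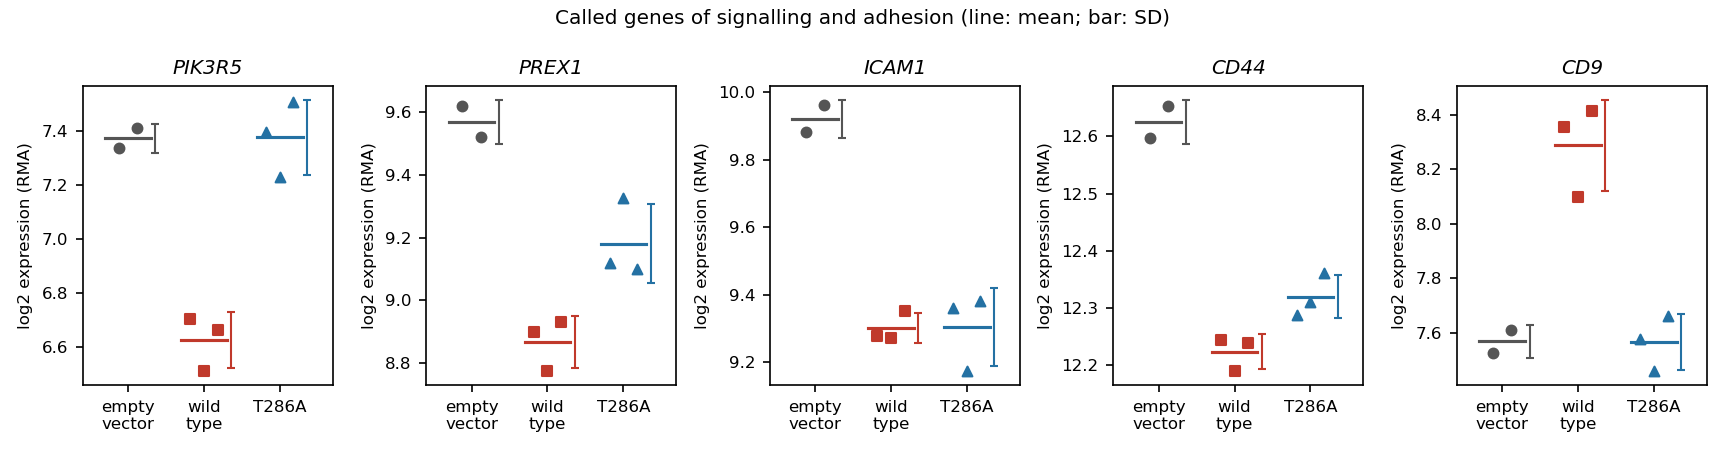
Log2 levels by array and group, with group means as lines and SDs as bars, of the called genes of receptor signalling and adhesion, PIK3R5, PREX1, ICAM1, CD44 and CD9. The wild-type arrays are lowest for PIK3R5 and PREX1 and highest for CD9, and both constructs lie below the controls for ICAM1 and CD44.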

How the data were processed

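RNA of 8 JVM13 samples was measured on Affymetrix arrays. The submitters' processing notes name RMA and R 3.5.0 for the deposited log2 values. RMA equalises the distribution of probe signal between arrays, so each difference is relative to the other genes, and background in dim probe sets makes differences too small. The number of arrays limits the precision. Of 48864 probe sets, 10 were controls and were left out, 45220 named 1 gene, 1325 several and 2309 none in the platform annotation.

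Groups came from the sample titles. The brightest single-gene probe set stood for each of 18231 genes. All 8 arrays were fitted together with lmFit and eBayes of limma 3.58.1 in R 4.3.3 (5 residual and 3.27 prior degrees of freedom), and a gene was called at an adjusted p under 0.05 (two-sided, Benjamini-Hochberg over the 18231 genes). Values after ± are SEs of differences unless SD is written. The fit was tested on simulated data.

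The members, lists and tests were chosen with earlier results of these data known. Values per array were given for called members, for the 3 brightest uncalled ligands and receptors, and for the uncalled member with the smallest p in each comparison. Of each other list, up to 4 called genes per comparison or the 1 with the smallest p were named. Alternatives covered the probe sets, a level filter, the prior, array weights, centring, normalization, the groups fitted, a replicate block and leaving out each array.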

Additional observations from a re-analysis of the deposited data

Results flagged for a closer look

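CCL22 and CCR9 are listed here because they were called in the direct contrast of T286A with the wild type. That contrast compares the arrays of the constructs. Replicates may be technical, so a difference due to the construct and one between the cell lines cannot be told apart. CCL22 was 0.90 (log2) higher with T286A than with the wild type (limma, adjusted p = 0.000665), with all 3 T286A arrays above all 3 wild-type arrays. The dimmer CCL22 probe set, tested on its own in limma, gave 0.41 and no call (adjusted p = 0.229). CCR9 was 0.58 higher with T286A (adjusted p = 0.0114), again in 3 of 3 arrays. Groups of 2 or 3 arrays are too small for a search for single outlying samples.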

How the results depend on the processing

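The 15 called results for named members kept their direction in 248 of 248 alternatives and their call in 178. In many of these the direction could not change, because the log2 difference stays the same by construction. Such alternatives are the level filter, the prior, the fit of 2 groups and the test of every probe set. Leaving out an array of a group outside the comparison is another. The count of kept directions is therefore weak evidence. CCR9 with the wild type, CCR9 and CCL22 between constructs, CCL22 with the wild type and CCR9 for both constructs kept their calls in every alternative run. Of 37 uncalled results, 18 of 611 alternatives reversed the sign and 25 gave a call; the cause was not tested.

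Counts are given as all genes for the wild type, T286A, T286A against wild type and both constructs, which were 317, 97, 180 and 255, or as members, which were 6, 2, 2 and 5. Only genes above the median gave 629, 527, 381 and 624 genes, and 4 members with T286A and 4 between constructs. A prior that follows the level gave 726, 618, 579 and 719 genes, and 5 members with T286A and 5 between constructs. With 2 groups only, 68 and 4 genes and 2 and 0 members were called in the wild-type and T286A comparisons. Array weights gave 317 genes with T286A and 436 for both. Testing every probe set gave 41 genes with T286A, and 164 genes and 3 members for both, and the mean of probe sets gave 190 genes with T286A and 4 members between constructs. Housekeeping centring gave 551 genes with the wild type, 697 genes and 5 members between constructs and 3 members for both. It moved the median of all genes to 0.11 with the wild type and -0.12 between constructs.

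Deviations of same-numbered arrays from their group means correlated from -0.0909 to 0.119. Arrays with different numbers were not compared, so these values cannot decide whether the replicate numbers pair the samples. With the replicate number as a block, 71, 3, 86 and 7 genes were called, and 2 members with the wild type, 0 with T286A and 1 for both.

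Leaving out 1 array in turn gave 22 to 196, 1 to 87, 70 to 128 and 3 to 199 genes, and 2 to 6, 0 to 2, 2 to 4 and 1 to 4 members.

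Signs that reversed belonged to uncalled results. With housekeeping centring the wild-type differences became 0.036 for CXCR4, 0.048 for GPR183 and 0.024 for CCR10, that of both constructs 0.030 for CXCR4, and those between constructs -0.017 for CXCL8, -0.052 for CX3CL1, -0.095 for CCL17 and -0.013 for CXCR4. Between constructs, array weights gave 0.0099 for CCL3, -0.022 for CCL17 and 0.0043 for CCR7, and quantile normalization 0.012 for CCR7. Over the arrays left out, the difference between constructs ran from -0.057 to 0.012 for CCL3, -0.044 to 0.089 for CCL17, -0.057 to 0.017 for CCR7 and -0.16 to 0.037 for CCND1.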
